A study of Mus musculus with 9 samples.

Results

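Binding of the homeodomain proteins TGIF1 and MEIS1 was set side by side in mouse leukaemia cells after 20 h of 4-hydroxytamoxifen (4-OHT). Peaks of the 2 TGIF1 lists and the 2 MEIS1 lists were merged wherever they overlapped by at least 1 bp, which gave 56390 sites. A site was called for a protein when both of its replicate lists held a peak there. By this rule 25215 of the 56390 sites were called for at least 1 protein. A separate merge of all 8 peak lists of the series gave 60709 regions. The 25215 called sites fell into 5635 sites called for both proteins, 5443 called for TGIF1 only and 14137 called for MEIS1 only. The other 31175 merged sites were called for neither, because no protein had a peak in both of its lists.

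All libraries came from c-kit+ bone marrow cells of C57BL/6 mice that had been transformed with the fusion oncogene MLL-AF9 and then transduced with pMIG-TGIF1-ER. In TGIF1-ER the protein is joined to the estrogen receptor, so that 4-OHT switches on its activity. The induced groups were TGIF1_4OHT and MEIS1_4OHT, with 2 libraries each, and the same cells given EtOH (TGIF1_EtOH and MEIS1_EtOH, 2 libraries each) served below as a readout that took no part in the classes. The fusion oncogene and the construct were common to every group, and no 4-OHT-treated cells without TGIF1-ER were included, so an effect of the drug and one of TGIF1 activity cannot be told apart. TGIF1 was precipitated with a TGIF antibody (H-172) and not through a tag, so the fusion and the cells' own TGIF1 were not distinguished. The labels name the other antibody Meis, without saying which members of that family it binds. They do not say whether replicates came from separate cultures, so the spread between replicates may be technical. An IgG precipitation is among the 9 samples, and a peak list for it was not analysed here. Peak positions measure no expression, so the cell type label could not be checked against markers.

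TGIF1 and MEIS1 belong to the TALE class of homeodomain proteins. MEIS1 works as a partner of HOX and PBX proteins, and together with HOXA9 it is a known driver of leukaemias with MLL fusions. TGIF1 is a repressor that recruits corepressors and is best known for limiting SMAD signalling after TGF-beta. Both proteins recognise short elements with the core TGACA, the MEIS1 form being TGACAG, so the same stretch of DNA can in principle suit either. A genome of the build of these peaks was not used here, so neither the sequence under the peaks nor the genes beside them are described, and sites are given by mm9 position.

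The lists to be compared were of very unequal length. TGIF1 replicate 1 held 12141 peaks and replicate 2 held 26932, and MEIS1 replicate 1 held 21173 and replicate 2 held 48829. The replicates of each protein therefore differed more from each other than the proteins did from each other, and the log2 ratio of TGIF1 to MEIS1 mean peak number was -0.84 (two-sided exact permutation p = 0.667, where 2 against 2 lists cannot go below 0.333). Peak length showed the same split by replicate number. The median was 438 bp in TGIF1 replicate 1 and 442 bp in MEIS1 replicate 1, against 567 bp in TGIF1 replicate 2 and 571 bp in MEIS1 replicate 2. The log2 ratio of mean median length was -0.01 (two-sided exact permutation p = 0.667), and its sign turned when lists were left out. The lists give no read numbers, so the depth behind each was unknown, and a peak missing from a shorter list does not show that the protein was absent.

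The shared sites made up a larger part of the TGIF1 sites than of the MEIS1 sites. Both shares count the same shared sites, so their order only follows the number of sites called for each protein. Of the 11078 sites called for TGIF1, 5635 were also called for MEIS1 (50.9%, exact Clopper-Pearson 95% interval 49.9 to 51.8%). The same sites made up 28.5% (27.9 to 29.1%) of the 19772 called for MEIS1. As background, 35.1% of all merged sites were called for MEIS1 and 19.6% for TGIF1. These intervals cover counting error only, and the lists varied far more: 50.5% of the peaks of TGIF1 replicate 1 and 37.1% of those of replicate 2 lay in sites called for MEIS1 (mean 43.8 ± 9.50%, SD, n = 2). For MEIS1, 28.5% of the peaks of replicate 1 and 20.1% of those of replicate 2 lay in sites called for TGIF1 (mean 24.3 ± 5.94%, SD, n = 2).

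The difference between these shares went with list length. With each list reduced to its 12141 longest peaks, as many as the shortest list held, 7236 sites were called for TGIF1, 5194 for MEIS1 and 2158 for both. The shared part was then 29.8% of the TGIF1 sites and 41.5% of the MEIS1 sites, so the order of the shares turned with that of the site numbers. Single lists also moved them: 83.6% of TGIF1 sites were shared without MEIS1 replicate 1 and 36.7% without TGIF1 replicate 1, and 49.0% of MEIS1 sites were shared without TGIF1 replicate 1 and 19.2% without MEIS1 replicate 1.

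**Figure D1:**
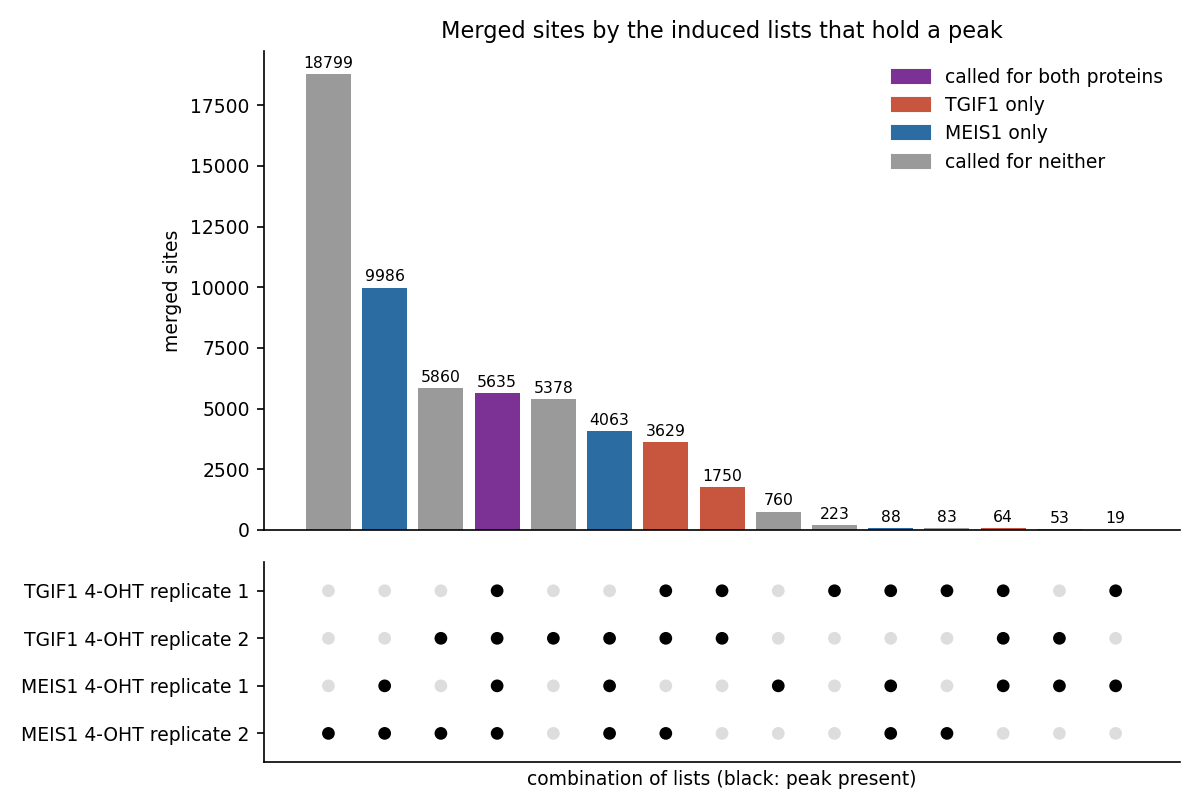
Number of merged sites (bars, linear axis from 0) for each of the 15 combinations of the 4 induced lists that hold a peak there, with black dots marking the lists of a combination. The highest bar is the 18799 sites with a peak in MEIS1 4-OHT replicate 2 alone, and sites of all 4 lists number 5635.

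Most sites called for TGIF1 only had a MEIS1 peak in 1 list. Among the 5443 sites called for TGIF1 only, 3629 (66.7%) had a MEIS1 peak in replicate 2, the longest list, and missed only the one in replicate 1, and 64 had the reverse. A MEIS1 peak was absent from both lists at 1750 sites, which is 15.8% (exact 95% interval 15.1 to 16.5%) of all TGIF1 sites. Over all merged sites 13.0% had no MEIS1 peak in either list. Every merged site without a TGIF1 peak holds a MEIS1 peak by construction, so the 13.0% is no fair background for TGIF1 sites. A MEIS1 peak in at least 1 list was present at 84.2% of called TGIF1 sites. Among the 26845 sites with a TGIF1 peak in at least 1 list it was present at 72.6%. The 15.8% rested on the longest list: it was 49.0% without MEIS1 replicate 2, and 27.0% without TGIF1 replicate 1.

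MEIS1 sites without TGIF1 were the larger group. Of the 14137 sites called for MEIS1 only, 4063 (28.7%) had a TGIF1 peak in replicate 2 and not in replicate 1, and 88 had the reverse. The remaining 9986 had none in either TGIF1 list. They made up 50.5% (exact 95% interval 49.8 to 51.2%) of all MEIS1 sites, and 52.4% of all merged sites had no TGIF1 peak. There too, merged sites without a MEIS1 peak hold a TGIF1 peak by construction. A TGIF1 peak in at least 1 list was present at 49.5% of called MEIS1 sites. Among the 49039 sites with a MEIS1 peak in at least 1 list it was present at 39.8%. Without TGIF1 replicate 2 the share of MEIS1 sites with no TGIF1 peak was 71.3%, and without MEIS1 replicate 1 it was 59.8%. Compared list by list, 80.8% of the peaks of TGIF1 replicate 1 overlapped MEIS1 replicate 2, while 19.6% of the peaks of MEIS1 replicate 2 overlapped TGIF1 replicate 1. For the lists numbered 2, 73.0% of TGIF1 peaks overlapped MEIS1 and 40.7% of MEIS1 peaks overlapped TGIF1. In each of the 4 pairings of a TGIF1 with a MEIS1 list except one, a larger share of the TGIF1 list was overlapped. The exception was TGIF1 replicate 2 with MEIS1 replicate 1, where 36.5% of the former and 47.4% of the latter overlapped, and there the TGIF1 list is the longer.

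Peak length differed between the kinds of site. Sites were joined by overlap, which a long peak meets more readily, so these lengths are not independent of the classes and are given as a description. MEIS1 peaks were longer where TGIF1 was called as well. In MEIS1 replicate 1 the median was 483 bp at shared sites and 432 bp at MEIS1-only sites, and in replicate 2 it was 724 bp and 599 bp. The log2 ratio was 0.16 and 0.27 in the lists (mean 0.22 ± 0.08, SD, n = 2). MEIS1-only sites with a TGIF1 peak in replicate 2 lay between, at 459 and 687 bp, and those with no TGIF1 peak had the shortest MEIS1 peaks, at 421 and 576 bp. The order was therefore the same in both MEIS1 lists.

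TGIF1 peaks differed less. In TGIF1 replicate 1 the median was 454 bp at shared and 426 bp at TGIF1-only sites, and in replicate 2 it was 705 bp and 668 bp, a log2 ratio of 0.09 and 0.08 (mean 0.08 ± 0.01, SD, n = 2). The TGIF1-only class was itself mixed. Its sites with no MEIS1 peak had TGIF1 peaks of 400 and 556 bp, whereas those with a MEIS1 peak in replicate 2 alone had 443 and 762 bp. In TGIF1 replicate 2 the latter were longer than at the shared sites. The log2 ratio between shared and TGIF1-only sites was accordingly 0.28 without MEIS1 replicate 1, when such sites count as shared, and 0.19 without TGIF1 replicate 1.

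When each protein's sites were put into 5 equal classes by their length rank in that protein's own lists, the 2 proteins gave different profiles. MEIS1 sites were called for TGIF1 in 48.6% of the longest class (exact 95% interval 47.1 to 50.2%), then in 34.8%, 26.2% and 19.8%, and in 13.0% of the shortest (12 to 14.1%). For TGIF1 sites called for MEIS1 the profile was flatter, from 56.3% (54.2 to 58.4%) in the longest class to 42.0% (39.9 to 44.1%) in the shortest. To take length out of the joining, the calls were repeated with sites formed from summits within 200 bp of each other. MEIS1 sites kept their gradient, from 35.2% in the longest class to 12.7% in the shortest. TGIF1 sites lost their order: the shares from longest to shortest were 40.7%, 47.0%, 45.9%, 44.9% and 38.9%. So the share of MEIS1 sites called for TGIF1 decreased from the longest to the shortest class under both rules. For TGIF1 sites that order held under the overlap rule and not under the summit rule, where the share was highest in the second class.

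**Figure D2:**
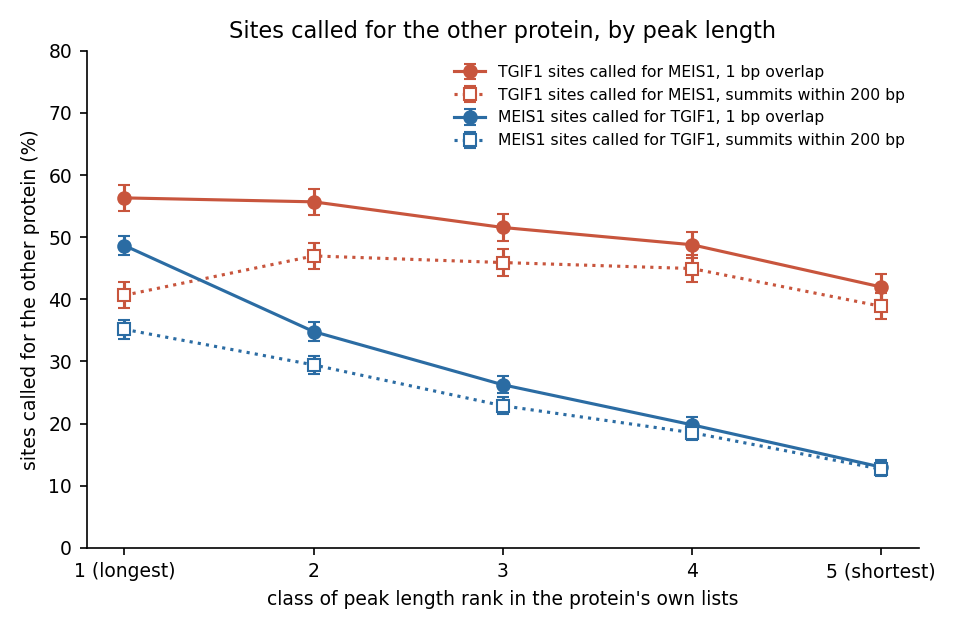
Share of sites called for the other protein (y axis, percent) in 5 classes of peak length rank (x axis), for TGIF1 sites in red and MEIS1 sites in blue. Filled points with solid lines use a 1 bp overlap, open points with dotted lines use summits within 200 bp, and bars are exact 95% intervals. The blue lines drop from 48.6% to 13.0% and from 35.2% to 12.7%, while the dotted red line stays between 38.9% and 47.0%.

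At shared sites the summits of TGIF1 and MEIS1 mostly lay close together. Of the 5635 shared sites, 4838 (85.9%) had exactly 1 peak in each list, and there all distances could be measured at the same places. TGIF1 summits of the 2 replicates were a median of 14 bp apart, and so were the MEIS1 summits. Between the proteins the median was 28 bp for the lists numbered 1 and 19 bp for the lists numbered 2, with 24 and 25 bp for the other two pairings. The distance between proteins thus exceeded the distance between replicates in all 4 pairings. Over all overlapping peaks at shared sites the 4 medians were 24 to 28 bp (mean 26.8 ± 1.89 bp, SD over the 4 pairs of lists).

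The number of sites declined continuously with summit distance, and 2 arrangements were counted. All 4 summits lay within 50 bp of each other at 2611 of the 4838 sites (54.0%, exact 95% interval 52.6 to 55.4%). At 835 sites (17.3%, 16.2 to 18.4%) both TGIF1 summits lay on the same side of both MEIS1 summits and more than 50 bp away. The other 1392 sites (28.8%) met neither description. The distribution between proteins had the longer tail: 18.4 to 20.4% of the pairs of summits of the 2 proteins were over 100 bp apart, against 7.19% for TGIF1 replicates and 6.45% for MEIS1 replicates.

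Distances between proteins varied with peak length more than distances between replicates did. With the sites in 5 classes of mean peak length, the median distance between proteins, averaged over the 4 pairs of lists, was 43.0 bp in the longest class and 30.5, 24.0, 20.1 and 17.3 bp in the others. Over the same classes TGIF1 replicates were 17 bp apart in the longest and 13 bp in the shortest class, and MEIS1 replicates 13 to 16 bp with no order. In the shortest class the 4 pairs of lists gave medians of 14 to 20 bp, which touches the replicate distances of 13 and 14 bp there. The separated arrangement made up 31.0% of the longest and 5.38% of the shortest class. Separated sites had longer peaks in all 4 lists, with medians of 481 and 805 bp for TGIF1 and 525 and 889 bp for MEIS1. Where all summits lay within 50 bp the medians were 434 and 627 bp and 468 and 645 bp. Joining by overlap limits how far apart the summits of short peaks can lie. The link of summit distance to peak length therefore partly follows from the joining and is given as a description.

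**Figure D3:**
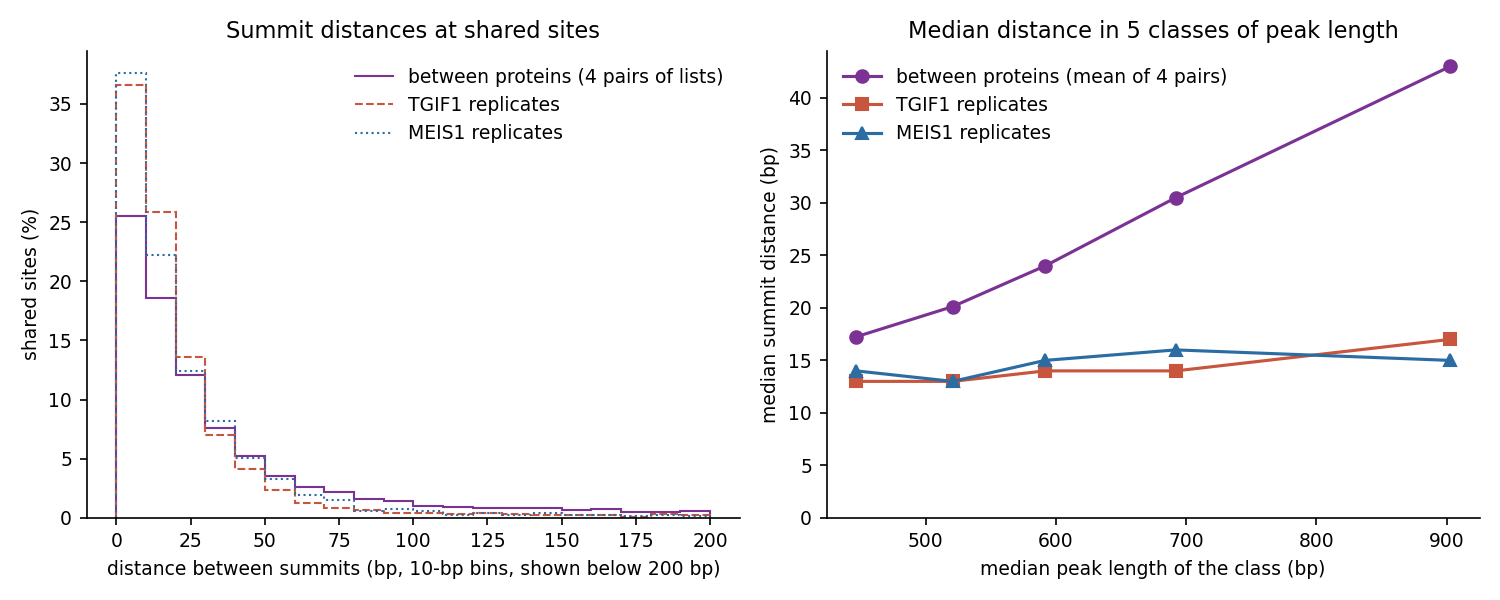
Left, distance between summits at the 4838 shared sites with 1 peak per list (x axis in bp, values below 200 bp shown; y axis, percent of sites, or of pairs of summits for the 4 pairings between proteins). Right, median distance (bp) against the median peak length (bp) of 5 length classes; the line between proteins climbs from 17.3 to 43.0 bp while both replicate lines stay between 13 and 17 bp.

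The EtOH libraries gave a view of the same sites in parallel cells whose TGIF1-ER was not switched on. There too, nearly all shared sites held MEIS1: 5106 of 5635 had a MEIS1 peak in both EtOH lists (90.6%, exact 95% interval 89.8 to 91.4%), and 5606 (99.5%) had one in at least 1 list, against 72.9% of all merged sites. Of the MEIS1-only sites, 76.2% (75.5 to 76.9%) had MEIS1 peaks in both EtOH lists, and of the TGIF1-only sites 29.6% (28.4 to 30.8%). The share over all merged sites was 39.6%. Shared and MEIS1-only sites were picked for MEIS1 peaks under 4-OHT, so their higher shares than over all merged sites partly follow from the class rule. In cells without induction MEIS1 was thus found more often at sites shared with TGIF1 under 4-OHT than at MEIS1-only sites. That order held without any 1 of the 4 induced lists. The sizes did not: without MEIS1 4-OHT replicate 1, when calls rest on the longest list alone, the shares were 71.2% at shared, 39.7% at MEIS1-only and 6.56% at TGIF1-only sites. Shared sites also had the longer MEIS1 peaks. As merged sites they were wider, with a median of 865 bp against 610 bp for MEIS1-only sites. An EtOH peak anywhere in the merged site was counted, which a wider site meets more readily. With only the longer 50% of each list, the shares were 94.3% at shared, 90.8% at MEIS1-only and 48.1% at TGIF1-only sites. That setting cuts the TGIF1 lists too and calls the classes anew, with 2154 shared sites in place of 5635. A shared site can thereby become MEIS1-only, so the smaller difference is not one at matched peak length.

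The 1750 TGIF1 sites with no MEIS1 peak under 4-OHT mostly had none under EtOH either. A MEIS1 peak in at least 1 EtOH list was present at 514 of them (29.4%, exact 95% interval 27.2 to 31.6%) and in both at 91 (5.20%). The shares over all merged sites were 72.9% and 39.6%. These 1750 sites were picked for lacking a MEIS1 4-OHT peak, which only 13.0% of all merged sites lack. Lower EtOH shares therefore partly follow from the class rule, and all merged sites are no fair background here. Of the 3629 TGIF1-only sites with a MEIS1 4-OHT peak in replicate 2, 92.4% had a MEIS1 peak in at least 1 EtOH list, and 41.1% in both. The TGIF1-only class by the replicate rule therefore joins sites with MEIS1 peaks in other lists and a smaller group that had them in none of the 4 MEIS1 lists, which numbered 1236 in all.

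A TGIF1 peak without induction was rare at MEIS1-only sites. These sites were defined by lacking a TGIF1 call under 4-OHT, so their low share partly follows from the class rule. A TGIF1 peak in at least 1 EtOH list was present at 1345 shared sites (23.9%, exact 95% interval 22.8 to 25%), at 1003 TGIF1-only sites (18.4%, 17.4 to 19.5%) and at 46 MEIS1-only sites (0.325%, 0.238 to 0.434%). Over all merged sites, of which 52.4% had no TGIF1 4-OHT peak in either list, the share was 4.53%. Where neither induced TGIF1 list had a peak, 5 of 9986 MEIS1 sites had a TGIF1 EtOH peak (0.0501%). At TGIF1 sites with no MEIS1 4-OHT peak the share was 11.3% (9.87 to 12.9%), and at those with one in replicate 2 alone it was 21.9% (20.5 to 23.2%). The TGIF1 EtOH lists held only 2764 and 592 peaks, so these shares are low throughout. Leaving out TGIF1 4-OHT replicate 1 gave 14.2%, 6.45% and 0.129% for shared, TGIF1-only and MEIS1-only sites. Leaving out MEIS1 4-OHT replicate 1 gave 11.6% for TGIF1-only sites.

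**Figure D4:**
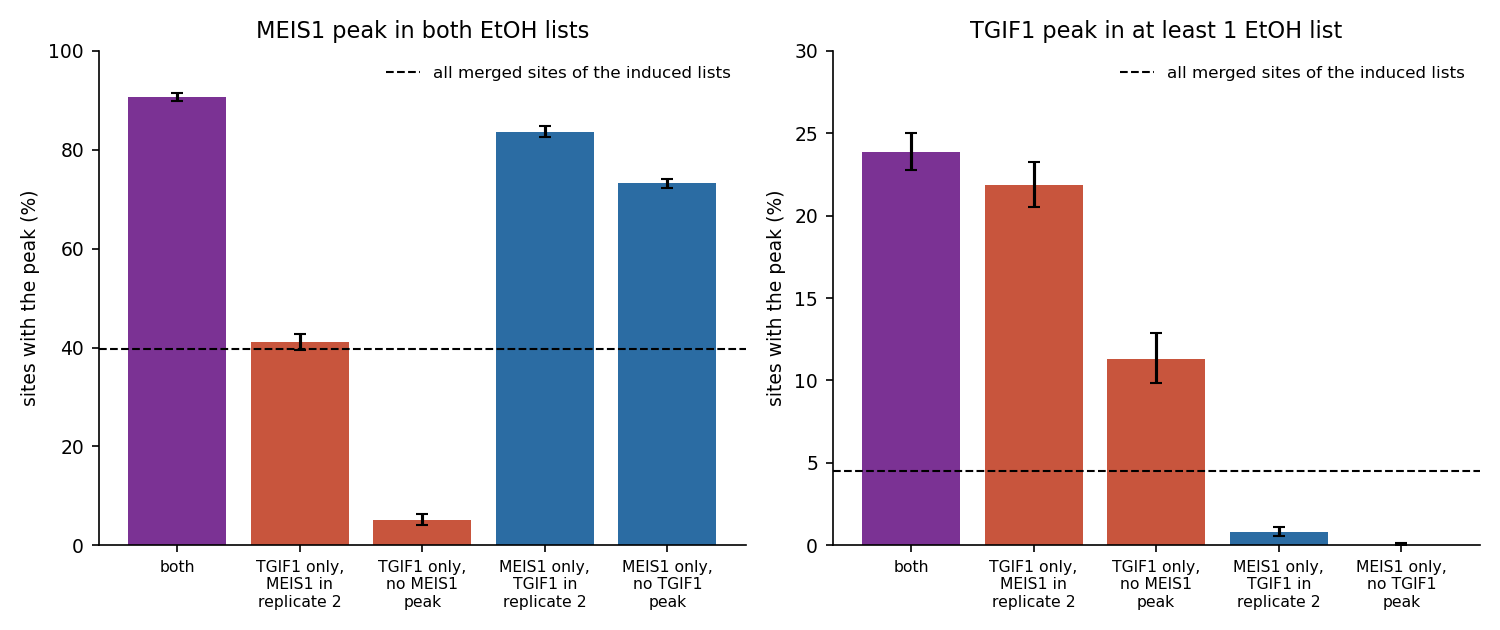
Share of sites (y axis, percent, to 100 on the left and to 30 on the right) with a MEIS1 peak in both EtOH lists (left) and with a TGIF1 peak in at least 1 EtOH list (right), for 5 kinds of site defined on the induced lists. Bars carry exact 95% intervals, and the dashed lines are the shares over all merged sites, 39.6% and 4.53%. TGIF1 sites with no MEIS1 peak stand lowest on the left at 5.20%, and MEIS1 sites with no TGIF1 peak lowest on the right at 0.0501%.

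The classes were also placed relative to each other. The nearest other MEIS1 site was a median of 14.1 kb from shared sites, 15.4 kb from TGIF1-only and 16.8 kb from MEIS1-only sites, against 16.3 kb for all merged sites. TGIF1 sites with no MEIS1 peak of their own were a median of 14.2 kb from a MEIS1 site, and 40.7% (exact 95% interval 38.4 to 43.1%) lay within 10 kb of one, close to the 40.4% of shared sites and the 37.5% of all merged sites. This measure leaves out MEIS1 at the site itself, which shared and MEIS1-only sites have and these sites lack. Their median distance to the nearest other MEIS1 site lay within the range of the other classes. For the nearest other TGIF1 site the classes spread more widely, with 23.2 kb for shared, 20.0 kb for TGIF1-only and 39.7 kb for MEIS1-only sites, against 31.4 kb for all merged sites. A TGIF1 site within 10 kb was present for 18.1% (17.4 to 18.9%) of MEIS1 sites without TGIF1, against 30.3% (29.1 to 31.5%) of shared and 25.5% of all merged sites. MEIS1 sites are more numerous than TGIF1 sites, which alone makes the nearest one closer.

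Sharing was fairly even across the 19 autosomes. Between 43.8% (chromosome 11) and 60.5% (chromosome 13) of TGIF1 sites were called for MEIS1, and between 23.9% (chromosome 1) and 33.4% (chromosome 15) of MEIS1 sites were called for TGIF1. Chromosome X, singled out after its values were seen, stood below both ranges. Of its 82 TGIF1 sites 26.8% (exact 95% interval 17.6 to 37.8%) were called for MEIS1, and of its 192 MEIS1 sites 11.5% (7.32 to 16.8%) were called for TGIF1. X also held few peaks of every list, 0.741 and 1.11% of the TGIF1 and 0.978 and 1.19% of the MEIS1 peaks, and these shares did not differ between the proteins beyond the spread of replicates (two-sided exact permutation p = 0.667, smallest possible 0.333). Without MEIS1 replicate 1 the X share of TGIF1 sites called for MEIS1 was 58.5%, and the share over all TGIF1 sites was 83.6% in that setting.

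Single sites show what these classes look like. They were taken by rule: merged length of at most 2 kb, summits of the defining lists within 50 bp, and the highest mean length rank in those lists, 5 per class. Positions are mm9, counted from 1. The leading shared site lay on chromosome 3 from 95454084 to 95455769. Its TGIF1 peaks were 1209 and 1662 bp long and its MEIS1 peaks 1303 and 1529 bp, and the 4 summits lay between 95454630 and 95454646. Both MEIS1 EtOH lists and 1 TGIF1 EtOH list had a peak there. The next, also on chromosome 3, from 88305932 to 88307779, had its 4 summits within 12 bp, MEIS1 peaks in both EtOH lists and no TGIF1 peak under EtOH. At the third, on chromosome 5 from 113593329 to 113594934, all 4 EtOH lists held a peak as well. The next ones lay on chromosome 8, from 74763151 to 74764789 and from 26711465 to 26713003, with summits within 9 and 15 bp. All 5 leading shared sites carried MEIS1 in both EtOH lists.

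TGIF1 sites without MEIS1 were led by chromosome 5 from 104606016 to 104607902, with TGIF1 peaks of 1634 and 1887 bp, and by chromosome 11 from 3944650 to 3946398, with 1657 and 1749 bp. Neither had a peak in any of the 4 EtOH lists. The third, on chromosome 8 from 72757387 to 72759251, had its replicate summits 2 bp apart, at 72758050 and 72758052, and TGIF1 peaks in both EtOH lists, so TGIF1 was found there with and without 4-OHT and MEIS1 in no list. The fourth was on the same chromosome from 73929543 to 73930961, and the fifth on chromosome 15 from 31530207 to 31532152. None of these 5 had a MEIS1 peak under EtOH.

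MEIS1 sites without TGIF1 were led by chromosome 13 from 99827971 to 99829816, with MEIS1 peaks of 1558 and 1846 bp. The second lay on chromosome 1 from 85159506 to 85161292, with 1728 and 1787 bp. Chromosome 1 also held the third, from 181092882 to 181094650. The remaining ones lay on chromosome 2, from 167575918 to 167577538 and from 25429570 to 25431251, and at the latter the replicate summits were 1 bp apart. All 5 had MEIS1 peaks in both EtOH lists and no TGIF1 peak in either, so they were places of long MEIS1 peaks at which no TGIF1 list of the series had a call. The second of them lies near very long peaks: the longest sites of chromosome 1 called for a protein spanned 85266010 to 85275666 (9657 bp) and 85081255 to 85088445 (7191 bp). Ranking by length favours such places, and 50.8% of the TGIF1 sites were shared once the 1-Mb windows in which at least 3 lists had a peak of 3 kb or more were dropped together with the adjoining windows.

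**Figure D5:**
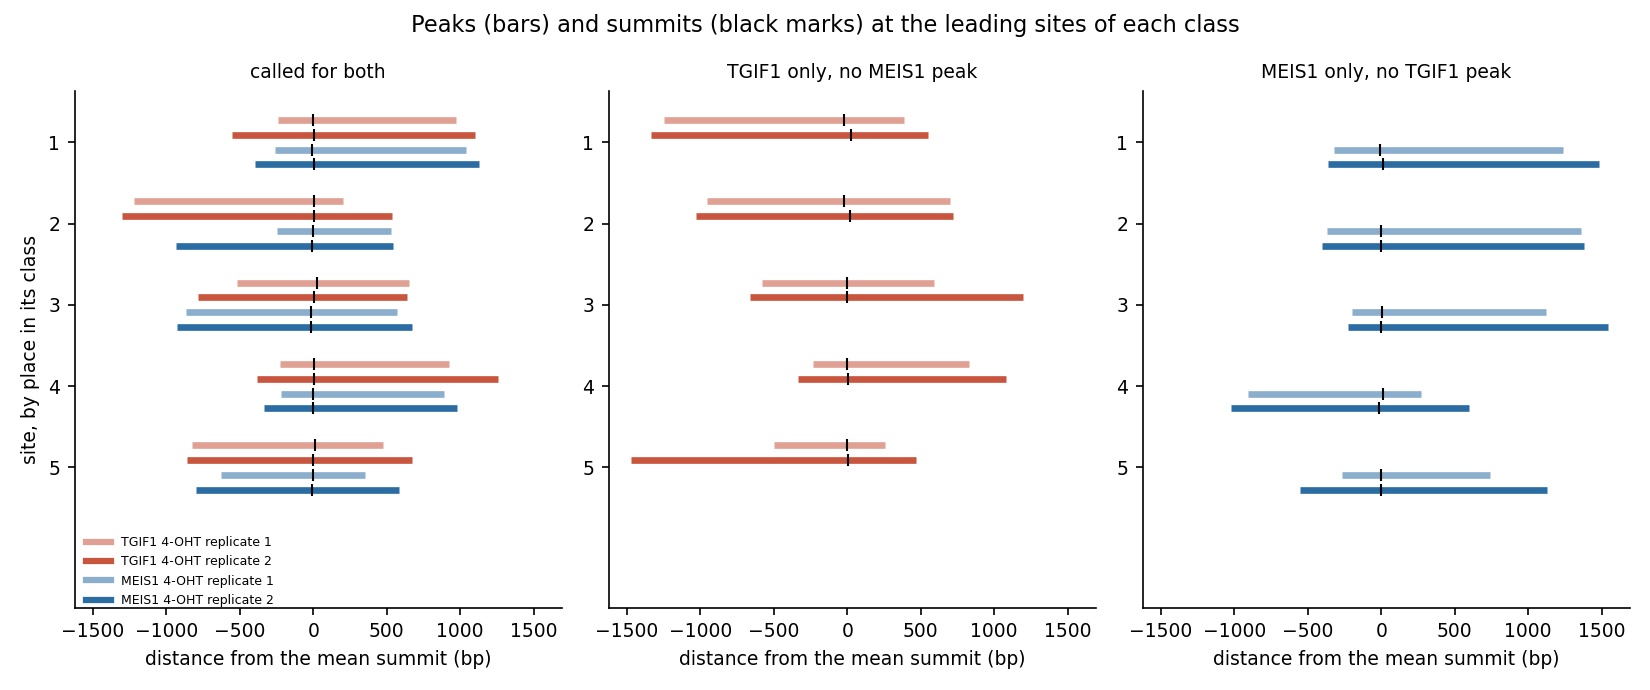
Peaks (horizontal bars) and summits (black marks) of the 4 induced lists at the 5 leading sites of each class, on a common x axis of distance in bp from the mean summit, TGIF1 in red and MEIS1 in blue with replicate 1 in the lighter shade. The 5 shared sites were chosen with all 4 summits within 50 bp. Their summits lie within 9 to 40 bp, and their peaks are up to 1841 bp long.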

How the data were processed

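Chromatin immunoprecipitation with sequencing (ChIP-seq) was measured in 9 samples, of which the 8 TGIF1 and MEIS1 libraries had peak lists. The deposited lists hold positions (chromosome, start, end, length and summit offset in bp), a unit other than a count or signal, with no height, fold or p-value, so peaks could not be filtered by strength and the depth behind each list was unknown. Reads were aligned with Bowtie 0.12.7 to mm9, per the submitters' processing notes. Per the file headers, MACS 1.4.2 made the second MEIS1 4-OHT list. For the remaining lists the caller, and for every list the threshold and control, were not given in the sources used here. Per the labels, 1 list belongs to 1 sample, so replicates were compared list by list.

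Sites were merged at 1 bp of overlap and called for a protein when both replicates held a peak. Shares carry exact Clopper-Pearson 95% intervals, which treat sites as independent and cover counting error only. Values of whole lists were compared by two-sided exact permutation tests. Sites named singly were the 5 per class with the highest mean length rank among those of at most 2 kb with summits within 50 bp. Alternatives were reciprocal overlap of 50%, summits within 200 bp, the longer 50% of each list, lists of equal length, calls from at least 1 list, same-numbered lists and leaving out each list. Others, on long peaks, single-list shares, separated summits, crossed numbers and chromosome X, were added after seeing the data. Classes and lists were chosen with earlier results of these data known. Planned analyses of promoters and of the TGACAG motif were not run, because a genome or annotation of mm9 was not used here. Python 3.11.15, numpy 2.4.6, pandas 2.3.3, scipy 1.17.1 and matplotlib 3.10.9 were used. Counts of overlapping peaks equalled those of bedtools 2.31.1 in 56 of 56 checks, and the code was tested on simulated peaks. Same-numbered lists were not taken as pairs, since the labels give no shared day or culture.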

Additional observations from a re-analysis of the deposited data

How the results depend on the processing

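Of 97 alternative values, 60 kept their direction and stayed within the spread between replicates or on their side of the test's threshold, 34 moved by more than that spread and 3 changed sign. For the log2 ratios of peak number and median length, p could not go below 0.333 in the permutation test. No alternative could therefore cross the threshold of 0.05, and staying on its side says nothing there. Within the spread, sizes could still differ widely, as the ranges show. The share of TGIF1 sites called for MEIS1 (50.9%) was 41.1% with the longer 50% of each list, 29.8% with lists of equal length and 72.6% when 1 list was enough for a call, and it ranged from 36.7 to 83.6% with 1 list left out. The converse share (28.5%) was 41.5% with lists of equal length, 39.8% when 1 list was enough, and 19.2 to 49.0% with 1 list left out. TGIF1 sites with no MEIS1 peak (15.8%) ranged from 16.4 to 49.0%, and MEIS1 sites with no TGIF1 peak (50.5%) from 51.0 to 71.3%. The log2 ratio of peak number (-0.84) ranged from -1.53 to -0.12 with 1 list left out, and equal lists fix it by construction, so that setting was not run for it. The log2 ratio of median length (-0.01) changed sign to 0.10 with the longer 50% of each list, to 0.16 without TGIF1 replicate 1 and to 0.19 without MEIS1 replicate 2, within a range of -0.21 to 0.19. The median summit distance between proteins, averaged over the pairs of lists, was 26.8 bp as reported. It was 21.8 bp with reciprocal overlap, 36.0 bp with the longer 50%, 46.8 bp with equal lists and 30 bp when 1 list was enough. At sites with exactly 1 peak per list it was 24.0 bp, and with 1 list left out it was 27.5 to 29.0 bp. The log2 length ratio of shared to single sites was 0.0626 for TGIF1 (0.08 as reported) with the longer 50% and 0.0720 to 0.28 with 1 list left out, and for MEIS1 (0.22) 0.17 to 0.35. The share of MEIS1-only sites with MEIS1 in both EtOH lists (76.2%) was 90.8% with the longer 50%, where shared sites had 94.3% and TGIF1-only sites 48.1%. With 1 list left out it was 39.7 to 76.2%, against 71.2 to 90.3% for shared and 6.56 to 29.0% for TGIF1-only sites. For TGIF1 in EtOH the ranges were 14.2 to 23.7% (shared), 6.45 to 18.3% (TGIF1 only) and 0.129 to 0.467% (MEIS1 only). TGIF1 sites of chromosome X called for MEIS1 ranged from 18.1 to 58.5%. Separated summits (17.3%) were 24.7% with the longer 50%. The cause was not tested for any of these.

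With the replicate block, which pairs same-numbered lists, 59.8% of TGIF1 and 33.4% of MEIS1 sites were shared. The median summit distance, averaged over those pairs, was 29.5 bp. The log2 ratios were -0.83 for peak number (two-sided exact permutation p = 0.5) and -0.01 for length. Over merged sites, replicate 1 minus replicate 2 in TGIF1 presence had r = -0.112 with the same difference in MEIS1 presence, a description. A merged site must hold a peak in at least 1 list, which lowers such a value, so its sign was not read. Replicate 2 of both proteins alone held 5860 sites, and replicate 1 of both alone held 19. For crossed numbers alone it was 83 (TGIF1 replicate 1 with MEIS1 replicate 2) and 53 (TGIF1 replicate 2 with MEIS1 replicate 1). With crossed numbers, TGIF1 replicate 1 shared 9482 sites with MEIS1 replicate 2 and TGIF1 replicate 2 shared 9757 with MEIS1 replicate 1. Promoter and motif alternatives were not run. Without read numbers, an absent peak cannot be told from one under the threshold of its list.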

Other observations

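The 31175 merged sites called for neither protein were mostly sites of 1 list. MEIS1 replicate 2 alone gave 18799 of them and TGIF1 replicate 2 alone 5378, while replicate 2 of both proteins, without either replicate 1, gave 5860. A MEIS1 peak in both EtOH lists was present at 15.6% of the sites called for neither, and a TGIF1 peak in at least 1 EtOH list at 0.510%.

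Across the 4838 shared sites with 1 peak per list, peak lengths in the lists numbered 2 of the different proteins were about as alike (Spearman rho 0.642) as those of the TGIF1 replicates (0.657), and more alike than those of the MEIS1 replicates (0.493). The lists numbered 1 gave 0.375. These are descriptions over sites of the same libraries.

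The longest site called for a protein, and the next longest, were not called for both but held peaks of both. The longest of them, 9657 bp on chromosome 1, was called for TGIF1 only and had a MEIS1 peak in replicate 1. The next, on chromosome 6 from 47686984 to 47696270 (9287 bp), was called for MEIS1 only and had 2 TGIF1 peaks in replicate 1. The site of 7191 bp on chromosome 1 given above, called for MEIS1 only, had no TGIF1 peak in either list. A site called for neither protein was longer than all of these, at 9879 bp.

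Sites with separated summits and those with all summits within 50 bp had TGIF1 EtOH peaks in similar shares, 23.4% and 24.0%, and MEIS1 peaks in both EtOH lists at 88.4% (exact 95% interval 86.0 to 90.5%) and 92.1% (91.0 to 93.1%).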
